A study of Homo sapiens with 6 samples.

Results

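Metallothioneins and 2 further genes of the zinc response, the transcription factor gene MTF1 and the zinc exporter gene SLC30A1, were examined in Panc-1 cells, an established human pancreatic carcinoma line. The members were 10 genes fixed by name: MT1A, MT1E, MT1F, MT1G, MT1H, MT1M, MT1X, MT2A, MTF1 and SLC30A1. Of these, 9 had a row among the 42495 gene rows with values, and MT1H is not analysed here. The cells had been kept for 72 h in medium conditioned by cancer-associated fibroblasts (CAFs). In the group CAFS-CM the medium came from a CAF line of a platinum-sensitive patient, and in CAFR-CM from a CAF line of a platinum-resistant patient. Each group had 3 libraries, all from medium of a single CAF line. A p-value here therefore refers to variation among libraries, and not among CAF lines. The comparison asks how the tumor cells' transcriptome differs between the 2 media, and no library of cells in plain medium was analysed here.

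Metallothioneins are small proteins rich in cysteine, whose thiol groups hold zinc and copper and can also take up cadmium or platinum. When free zinc rises, the zinc-finger factor MTF-1, the product of MTF1, binds metal response elements in front of the metallothionein genes and of SLC30A1 and switches them on. SLC30A1 encodes ZnT1, which carries zinc out through the plasma membrane. Some metallothionein genes, MT2A and MT1X among them, also respond to glucocorticoids and other stress signals.

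In these libraries the genes of the family differed widely in how far they moved. MT1X was 5.21-fold and MT1E 2.69-fold higher after CAFR-CM than after CAFS-CM, while MT2A, by far the most abundant, was 20.3% higher. MT1A did not pass the test, and MT1G was listed at 0 in all 6 libraries. Neither MTF1 nor SLC30A1 passed the test. Among the 7 members tested, 4 were higher and 0 lower at an adjusted p under 0.05 (limma, Benjamini-Hochberg over all genes), where 15.1% of the 23608 genes tested were called higher and 11.1% lower (26.2% in either direction). MT1X, MT1E and MT1F, 3 of the 4, also had a ratio of means of at least 2, which together with a higher call was met by 4.6% of the genes tested. At an unadjusted p under 0.05 from limma, 5 members were higher, beside 5456 of the 23608 genes tested. Without CAFR-CM replicate 2 only MT1X and MT1E, 2 members, kept the adjusted call. The members' median log2 fold change was 0.38, beside 0.06 over all genes tested. Of all calls, 57.5% were higher (40.3% when the libraries were scaled by median-of-ratios factors).

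All metallothionein members lie in 1 cluster on chromosome 16. From MT4 to MT1X it spans 119.1 kb of GRCh38, from 56565073 to 56684196 (GENCODE v44). MT2A runs from 56608584 to 56609497, MT1E from 56625475 to 56627112 and MT1X from 56682470 to 56684196, all on the plus strand, and the main transcripts of MT2A and MT1X have 3 exons each. MTF1 lies on chromosome 1 from 37809574 to 37859592 and SLC30A1 on the same chromosome from 211571568 to 211579161, both on the minus strand.

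The stretches in front of MT1X, MT2A and SLC30A1 are shown because MT1X moved the most, MT2A is the most abundant and SLC30A1 is the classical target of MTF-1 outside the family. Each is the 250 bases before the annotated start, written 5′ to 3′ on the gene's strand (RefSeq, GRCh38.p14), at chr16:56682220-56682469, chr16:56608334-56608583 and chr1:211579162-211579411. Capitals mark each match to the core of the metal response element, searched as TGCACNC and TGCGCNC on both strands.
MT1X: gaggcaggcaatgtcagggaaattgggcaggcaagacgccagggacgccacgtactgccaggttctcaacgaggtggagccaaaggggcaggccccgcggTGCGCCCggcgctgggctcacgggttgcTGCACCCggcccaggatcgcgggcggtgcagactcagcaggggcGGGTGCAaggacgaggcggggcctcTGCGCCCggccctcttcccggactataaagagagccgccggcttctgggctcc
MT2A: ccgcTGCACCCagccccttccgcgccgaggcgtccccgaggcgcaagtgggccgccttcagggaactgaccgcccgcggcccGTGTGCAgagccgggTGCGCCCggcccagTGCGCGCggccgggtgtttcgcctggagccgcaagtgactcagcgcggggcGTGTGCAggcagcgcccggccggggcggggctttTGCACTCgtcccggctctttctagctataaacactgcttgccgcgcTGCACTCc
SLC30A1: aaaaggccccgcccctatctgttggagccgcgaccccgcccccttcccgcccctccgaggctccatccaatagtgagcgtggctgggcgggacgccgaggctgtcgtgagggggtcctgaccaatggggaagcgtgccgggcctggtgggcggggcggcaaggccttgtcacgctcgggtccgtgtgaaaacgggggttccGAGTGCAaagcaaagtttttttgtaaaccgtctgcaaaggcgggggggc

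The core was found 4 times before MT1X, 7 times before MT2A and 1 time before SLC30A1, with no overlap between matches, and in no place before MTF1. Promoters were present in the RefSeq table for 5 of the 10 members, the other being MT1H. Among 35116 promoters of the same length, 24.8% held at least 1 match, 0.370% held at least 4 and 0.0313% at least 7. These promoters were not matched for base composition. G and C made up 70.0% of the stretch before MT1X and 73.2% of that before MT2A, and what part this has in the shares was not tested. The matches before MT1X lay between positions -150 and -47 from the start, and those before MT2A between -246 and -2. MT2A had more copies of the core than MT1X, and whether their number bears on the fold change was not tested. A match of these letters does not show that a factor binds there.

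**Figure D1:**
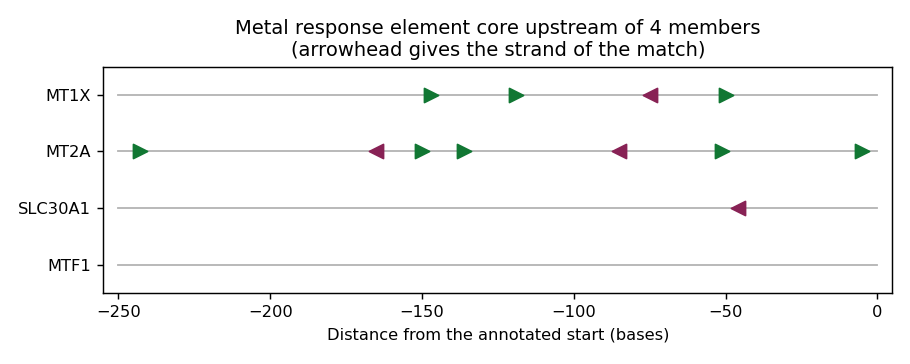
Matches to the metal response element core in the 250 bases before 4 members, by distance from the annotated start in bases. Arrowheads give the strand of each match, with 4 before MT1X, 7 before MT2A, 1 before SLC30A1 and 0 before MTF1.

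Levels are the deposited FPKM (fragments normalized for transcript length and for the size of the library), and group means are given ± SD with n = 3. The FPKM of all genes summed to 660604 to 691568 per library after CAFS-CM and to 666560 to 701406 after CAFR-CM. Read counts were not used here, so the depth behind a value is unknown. The epithelial keratin genes KRT8 and KRT18 were abundant in all libraries, with mean levels of 3587 and 2401 FPKM after CAFS-CM and 3080 and 1943 after CAFR-CM. On the same list, KRT19 and KRT7 were at 53.2 and 5.92 FPKM after CAFS-CM and 47.1 and 4.84 after CAFR-CM. VIM, also on it, was at 2337 and 2090 FPKM after CAFS-CM and CAFR-CM. Of this list, KRT18 and KRT19 were called lower (adjusted p = 0.011 and 0.020 from limma). The 13 fibroblast markers summed to 68.7 to 74.1 FPKM after CAFS-CM and 81.3 to 88.1 after CAFR-CM. COL1A1 and COL6A1 were higher and COL5A1 lower among the 7 tested. Mean levels of COL3A1, COL1A1, COL5A1 and COL6A1 were 21.45, 20.4, 17.2 and 8.57 FPKM after CAFS-CM. After CAFR-CM they were 24.6, 29.0, 11.55 and 15.3 FPKM. THY1 was at 2.74 and 2.51 FPKM after CAFS-CM and CAFR-CM. FAP was listed at 0 in all libraries, and DCN, LUM and PDGFRA did not exceed 0.16 FPKM. Leukocyte markers summed to 2.67 to 3.69 FPKM over all libraries. Endothelial markers summed to 1.55 to 1.63 FPKM after CAFS-CM and to 2.09 to 2.55 after CAFR-CM. Of these, KDR was the most abundant, at 1.41 and 2.13 FPKM, and was called higher (adjusted p = 0.0245 from limma). What part these differences have in the results was not tested. In bulk RNA, fewer cells with a transcript and less of it per cell cannot be told apart.

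MT1X had the clearest change. It was at 13.94, 16.50 and 13.44 FPKM in the 3 CAFS-CM libraries and at 75.78, 68.12 and 84.81 FPKM in the 3 CAFR-CM libraries. Every CAFR-CM library lay at least 4.13-fold above every CAFS-CM library. The mean rose from 14.6 ± 1.64 to 76.2 ± 8.35 FPKM, or by 2.30 ± 0.10 (standard error) on the log2 scale with limma's adjusted p = 2.95e-05. Counted from the largest increase down, MT1X ranked 24 by log2 fold change among the 23608 genes tested. By level it moved from rank 5791 to rank 1104 of the 42495 gene rows. MT1X lies at one end of the cluster, the last metallothionein gene before NUP93.

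MT1E, which encodes another metallothionein-1 isoform, came next. Its level was 52.64, 67.11 and 55.91 FPKM after CAFS-CM and 145.3, 156.39 and 170.7 FPKM after CAFR-CM. The groups did not overlap, and the closest pair of libraries still differed 2.17-fold. The mean rose from 58.6 ± 7.59 to 157 ± 12.7 FPKM (1.42 ± 0.10 as log2 fold change ± standard error, limma's adjusted p = 1.66e-04). MT1E and MT1X were called higher under all 13 alternative settings tried.

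MT2A, the metallothionein gene used most in these cells, changed by much less. It was at 1008.81, 1177.53 and 1098.14 FPKM after CAFS-CM and at 1321.4, 1326.89 and 1304.2 FPKM after CAFR-CM. The 3 CAFR-CM libraries lay close together and above all CAFS-CM libraries, by 1.11-fold for the closest pair. The mean rose by 20.3%, from 1095 ± 84.4 to 1317 ± 11.8 FPKM (0.27 ± 0.07 as log2 fold change ± standard error, limma's adjusted p = 0.0238). Among all gene rows MT2A ranked 50 by level after CAFS-CM and 35 after CAFR-CM. Its call is fragile: the adjusted p from limma was 0.0584 without CAFS-CM replicate 1, 0.0744 without CAFS-CM replicate 3, 0.0572 without CAFR-CM replicate 2 and 0.0531 without CAFR-CM replicate 3, and 0.103 with median-of-ratios factors (log2 fold change 0.17).

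MT1F was a low-level gene. It was at 0.43, 0.41 and 1.34 FPKM after CAFS-CM and at 3.07, 3.3 and 1.64 FPKM after CAFR-CM. The highest CAFS-CM library and the lowest CAFR-CM library, both replicate 3, came within 1.22-fold of each other. The mean rose from 0.727 ± 0.531 to 2.67 ± 0.899 FPKM (1.10 ± 0.26 as log2 fold change ± standard error, limma's adjusted p = 0.0226). The adjusted p from limma was 0.0758, 0.0742, 0.0587 and 0.0630 without CAFS-CM replicate 1 or 2 or CAFR-CM replicate 1 or 2, and the log2 fold change was 1.86 with a pseudocount of 0.1.

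MT1A, MT1G and MT1M showed no called change. MT1A was at 8.55, 12.29 and 11.87 FPKM after CAFS-CM and at 12.69, 8.67 and 12.69 FPKM after CAFR-CM, so that the groups overlapped. Its log2 fold change was 0.05 (95% interval from -0.37 to 0.47, adjusted p = 0.865 from limma), which leaves room for a change of either sign. MT1M was above 0 in 1 library, CAFS-CM replicate 3, at 0.17 FPKM, and neither it nor MT1G passed the filter on low values (above 0.1 FPKM in at least 3 libraries).

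**Figure D2:**
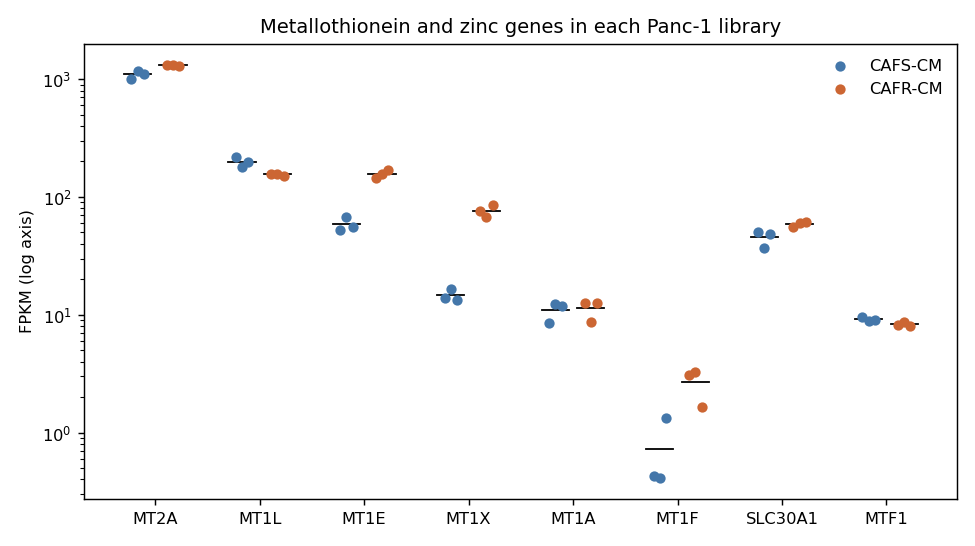
FPKM on a log axis of 7 members and the pseudogene MT1L in each library, with points for libraries and bars for group means (3 libraries per group). MT1X sits between 13.44 and 16.50 after CAFS-CM and between 68.12 and 84.81 after CAFR-CM, while the points of MT1A overlap.

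Neither the regulator nor the exporter passed the test. SLC30A1 was at 50.86, 36.61 and 48.62 FPKM after CAFS-CM and at 55.4, 60.42 and 60.81 FPKM after CAFR-CM. The groups did not overlap, with CAFS-CM replicate 2 lowest. The means were 45.4 ± 7.66 and 58.9 ± 3.02 FPKM, a log2 fold change of 0.38 (95% interval from 0.10 to 0.66, adjusted p = 0.0563 from limma). It passed the threshold without CAFS-CM replicate 1 (0.47, adjusted p = 0.0460 from limma) and without CAFS-CM replicate 2 (0.24, adjusted p = 0.0373 from limma). In 9 of the 13 alternative settings SLC30A1 was not called. Limma's adjusted p was 0.125 without CAFR-CM replicate 2 and 0.124 without CAFR-CM replicate 3. With median-of-ratios factors it was 0.124 (log2 fold change 0.28).

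MTF1 was at 9.57, 8.89 and 9.03 FPKM after CAFS-CM and at 8.2, 8.62 and 8.0 FPKM after CAFR-CM. Every CAFR-CM value was below every CAFS-CM value, yet by little. The log2 fold change was -0.13 (95% interval from -0.27 to 0.0037, adjusted p = 0.139 from limma), and -0.22 with median-of-ratios factors (adjusted p = 0.0294 from limma). Over the members, the groups did not overlap for 5 with CAFR-CM higher and for 1 with CAFR-CM lower, where 26.4% and 16.8% of all genes tested did so.

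By level per length, the order after CAFS-CM was MT2A, MT1E, SLC30A1, MT1X, MT1A, MTF1 and MT1F. The libraries of MT1A and MTF1 overlapped there, and those of the other neighbours in the order did not. After CAFR-CM, MT1X stood above SLC30A1, and no neighbours in the order overlapped.

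The levels were also summed over the family, although a sum of FPKM still depends on how reads were assigned between transcripts of unequal length. The FPKM of the 7 metallothionein members summed to 1084, 1274 and 1181 after CAFS-CM and to 1558, 1563 and 1574 after CAFR-CM, a ratio of means of 1.33. The sum was thus higher in every CAFR-CM library, and no test was made on it because the members were chosen. Without MT2A the 6 others summed to 84.9 ± 10.5 FPKM after CAFS-CM and to 248 ± 19.2 FPKM after CAFR-CM, a ratio of 2.92. Of the difference in the sum of all 7, MT2A made up 57.8%, MT1E 25.7% and MT1X 16.0%. The share of MT1X in the sum went from 1.24 ± 0.0881 to 4.87 ± 0.515%, that of MT1E from 4.95 ± 0.280 to 10.1 ± 0.762%, and that of MT2A from 92.8 ± 0.332 to 84.2 ± 1.14%. Over all 13 metallothionein rows, which include the pseudogene MT1L, the share of MT2A went by less, from 79.3 ± 1.84 to 76.5 ± 0.829%.

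A row outside the members also carried a large part of the family's signal. MT1L, next to MT1E in the cluster, is annotated as a transcribed pseudogene. It was at 218.5, 177.86 and 198.22 FPKM after CAFS-CM and at 158.09, 157.67 and 150.71 FPKM after CAFR-CM. All CAFR-CM libraries were lower, opposite to MT1E, and MT1L had a log2 fold change of -0.34 ± 0.07 (standard error) and passed the test at limma's adjusted p = 0.0148, a call lost with cyclic loess scaling. MT1E and MT1L together came to 257 ± 13.3 and 313 ± 9.06 FPKM, a ratio of 1.22. With all 13 metallothionein rows summed, the ratio was 1.25. The pseudogenes MT1DP and MT1JP were tested and not called.

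**Figure D3:**
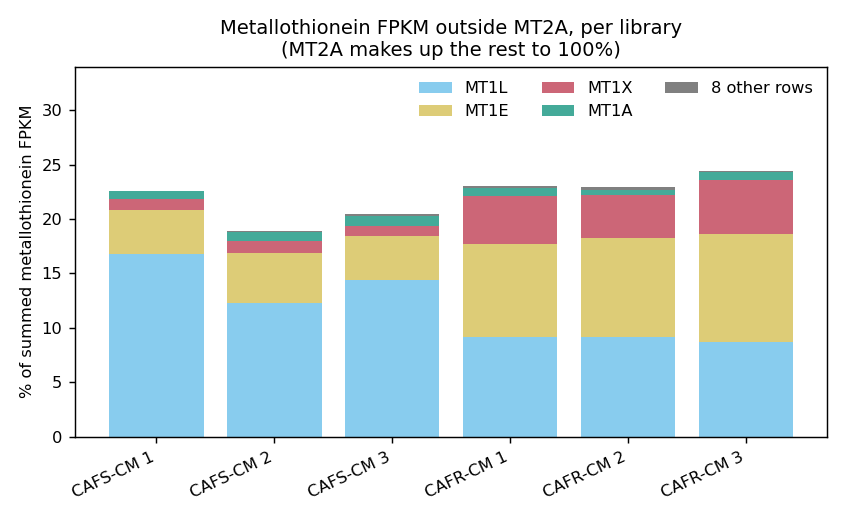
Share of the summed FPKM of 13 metallothionein rows held by rows other than MT2A, in % per library. MT1L falls from 14.5 to 9.03% in the group means, while MT1E goes from 4.24 to 9.15% and MT1X from 1.06 to 4.43%.

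Metallothionein transcripts are alike, so reads can fit more than one of them. Windows were pooled over all transcripts of a locus and over other annotations that overlap it on the same strand. Distinct 50-base windows numbered 347 for MT1A, 1005 for MT2A, 1098 for MT1E, 1934 for MT1F and 2050 for MT1X. Shares of such unlike totals do not rank these genes by how much of their main transcripts is shared. Of the distinct 50-base windows in the GENCODE v44 transcripts of MT1E, 7.10% also occurred without mismatch in transcripts of another locus, beside 12.2% for MT1X, 4.48% for MT2A, 1.24% for MT1F and 5.76% for MT1A. At 100 bases this was 0 for MT1E, MT1F, MT1A and MT2A. For MT1X it was 6.14%, all shared with the pseudogene DPPA2P4, which lies beside it. At 50 bases too, most of the shared MT1X windows were shared with DPPA2P4 (8.88% of all its windows). The metallothionein gene that shared the most 50-base windows with MT1X was MT1G (2.49%). MT1L shared 3.35% of its 50-base windows, all with the processed pseudogene MT1P3 and none with MT1E. These shares allow no mismatch, and the read length was not stated, so values of single metallothionein genes remain less certain than those of MTF1 (0.640% at 50 bases) and SLC30A1 (0).

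The protein-coding genes around the cluster, chosen by position after the members' values were seen, moved in both directions. NUP93, a nuclear pore gene just past MT1X, fell by 0.28 on the log2 scale (adjusted p = 0.00247 from limma). At the other end, BBS2, a gene of ciliary transport that overlaps the start of the cluster and spans MT4, rose by 0.39 (adjusted p = 0.00872 from limma), and OGFOD1 and NUDT21 fell by 0.26 and 0.29. HERPUD1, a gene of endoplasmic reticulum protein degradation, rose by 0.49 (adjusted p = 0.00306 from limma), and SLC12A3 did not exceed 0.02 FPKM.

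Zinc transporters moved little beside MT1X and MT1E. For this list and those that follow, the shares over all genes tested were 15.1% higher and 11.1% lower. Of the 9 other genes of the ZnT family, 7 were tested, with 1 higher and 2 lower (limma, median log2 fold change -0.14). SLC30A9 was at 15.9 ± 0.526 and 18.9 ± 1.45 FPKM (0.23, adjusted p = 0.0347 from limma). SLC30A6 and SLC30A7, transporters of the secretory pathway, fell by 0.25 and 0.18 (adjusted p = 0.00648 and 0.0370 from limma), and SLC30A5, their relative there, was at -0.14 (adjusted p = 0.0522). Without each CAFS-CM replicate or CAFR-CM replicate 3 in turn, 0 of these genes were higher and 1 was lower, and 1 was lower without CAFR-CM replicate 1.

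Of the 14 ZIP genes, which carry zinc into the cytosol, 12 were tested, with 1 higher and 2 lower (limma; median log2 fold change -0.03). The transcript of SLC39A14, an importer of zinc and iron, went up from 48.2 ± 2.12 to 60.2 ± 4.22 FPKM (0.32, adjusted p = 0.00899 from limma). SLC39A9 and SLC39A7, the latter a zinc channel gene of the endoplasmic reticulum, fell by 0.30 and 0.21 (adjusted p = 0.0169 and 0.0162 from limma). SLC39A11 was at 0.12 (adjusted p = 0.142 from limma). SLC39A1, the most abundant ZIP gene here, was at 112 ± 4.69 and 104 ± 8.16 FPKM (adjusted p = 0.260 from limma). Without each CAFS-CM replicate in turn, 1 ZIP gene was lower, and 2 were higher without CAFR-CM replicate 3.

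**Figure D4:**
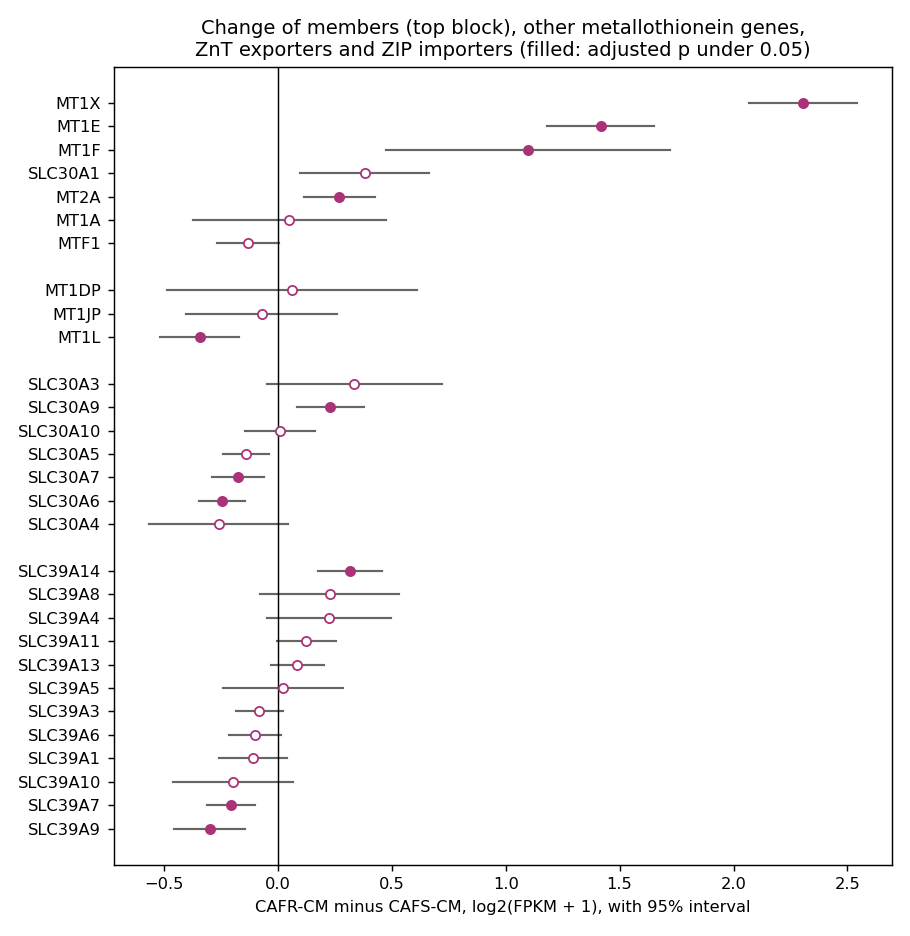
Log2 fold change (CAFR-CM minus CAFS-CM on the log2(FPKM + 1) scale) with its 95% interval for the tested members, other metallothionein rows, ZnT genes and ZIP genes. Filled points passed an adjusted p under 0.05. MT1X at 2.30 and MT1E at 1.42 stand apart, and all zinc transporters lie between -0.30 and 0.38.

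A further list held other genes tied to MTF-1, mostly from work in mouse. Of its 6 genes, 4 were higher and 0 lower (limma; median 0.24), where 15.1% and 11.1% of all genes tested were so called. Without CAFR-CM replicate 1, 1 was lower. NDRG1, also a gene of the hypoxia response, rose from 3.40 ± 0.121 to 49.6 ± 5.82 FPKM and GCLC, a glutathione synthesis gene, from 9.55 ± 0.220 to 16.0 ± 0.466 FPKM (3.52 and 0.69, adjusted p = 2.99e-06 and 1.60e-04 from limma). SELENOH and CSRP1 rose by 0.27 and 0.19. PGF, a gene of the VEGF family, was at 2.35 ± 0.241 and 2.89 ± 0.196 FPKM without overlap between the groups (0.22, adjusted p = 0.134 from limma). SLC39A10, which zinc represses through MTF-1 in mouse, was at 25.0 ± 1.59 and 21.9 ± 3.62 FPKM (-0.20, adjusted p = 0.245 from limma).

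Metals also induce heat shock and antioxidant genes, and these moved in opposite directions. Of 10 such genes, 6 were higher and 4 lower (limma). HMOX1, the heme oxygenase gene, rose 8.40-fold and SLC7A11, the cystine transporter gene, 6.08-fold, and NQO1, SRXN1, TXNRD1 and GCLM, genes of redox defence, rose by 0.95, 0.66, 0.63 and 0.60 on the log2 scale. The 4 lower were the heat shock genes HSPH1, HSPA1A, HSPA1B and DNAJB1, which fell by 0.88, 0.83, 0.84 and 0.44. HSPA1A and HSPA1B are near-identical copies that may share reads.

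Glucocorticoid response genes were split as well. Of 9, 8 were tested, with 3 higher and 3 lower (limma; median 0.01). TSC22D3, which encodes GILZ, rose from 4.52 ± 0.176 to 9.97 ± 0.451 FPKM (0.99, adjusted p = 1.19e-04 from limma), and FKBP5 and ERRFI1 rose by 0.34 and 0.30. DUSP1 and SGK1 fell by 0.48 and 0.35. NR3C1, the gene of the receptor itself, fell by 0.26 (adjusted p = 0.00888 from limma).

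The 5 genes nearest to MT2A in their centred log2(FPKM + 1) profile over the 6 libraries, among 14813 genes of at least 1 FPKM on average, were IFI30, FAM177A1, LTO1, CEP170 and MED7, at Euclidean distances from 0.0614 to 0.0740. IFI30, which encodes a lysosomal thiol reductase, went from 34.2 ± 2.76 to 41.2 ± 0.800 FPKM. Their log2 fold changes of 0.26 to 0.30 follow from this choice, since MT2A itself was at 0.27.

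**Figure D5:**
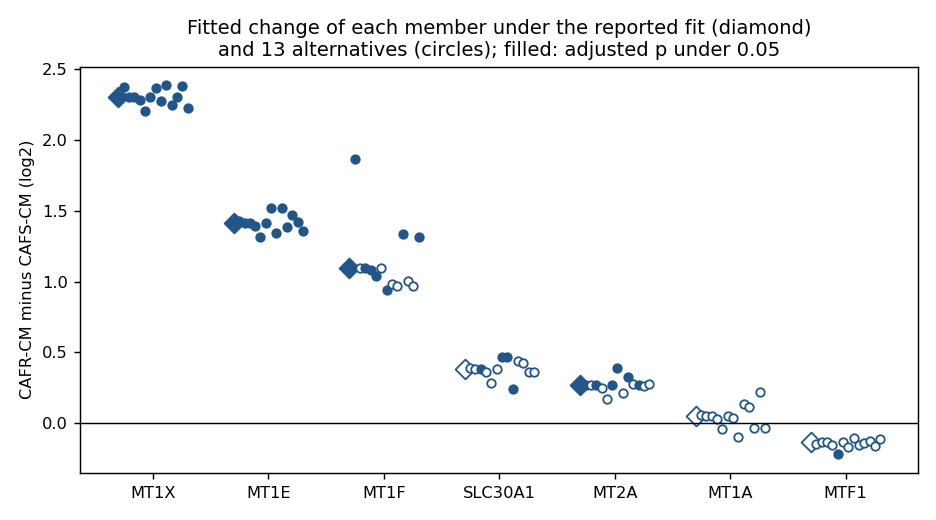
Fitted change of each tested member (CAFR-CM minus CAFS-CM, log2) under the reported fit (diamonds) and 13 alternative settings (circles), filled where the adjusted p is under 0.05. MT1X stays between 2.21 and 2.39 and MT1E between 1.32 and 1.52, all filled, while MT2A loses its call in 7 settings and MT1F in 6.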

How the data were processed

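Per the labels and the study's methods, total RNA was depleted of rRNA and made into libraries that mark strand with dUTP. The authors filtered reads with SOAPnuke (version 1.5.2), aligned them by HISAT2 (version 2.0.4) to GRCh38.p13, and deposited gene levels from RSEM (version 1.2.12) as FPKM, rounded to 2 decimals. Bowtie2 (version 2.2.5) is listed too in the submitters' notes. The authors' test, DESeq2 (version 1.4.5), needs counts and was not repeated. Gene annotation and use of strand in counting: not given in the sources used here. Rows of circular RNA (55272) hold no values and were not used.

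The test was limma (version 3.58.1, under R 4.3.3), with its trend option, on log2(FPKM + 1) of the 23608 genes above 0.1 FPKM in at least 3 libraries, and Benjamini-Hochberg adjustment covered all of them. The scale understates changes of low genes. The fit was tested on simulated data. By rule, the text names all members, up to 4 genes per list by smallest adjusted p, genes at 0 in all libraries, and the 5 genes nearest to MT2A. SLC39A1, SLC39A10, FKBP5, NR3C1, the other stress genes, PGF, further markers and the genes around the cluster were named after their values were seen. Members and lists were chosen with earlier results of these data known. Alternatives were another pseudocount, other filters and scalings, a replicate block and leaving out each library.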

Additional observations from a re-analysis of the deposited data

How the results depend on the processing

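Under 13 alternatives MT1X and MT1E kept their direction and their call, at log2 fold changes of 2.21 to 2.39 and 1.32 to 1.52. With no filter on low values the fit was made anew on 37870 genes, and 2 members were higher (MT1F and MT2A at adjusted p = 0.0573 and 0.0569 from limma). With median-of-ratios factors 1 member, MTF1, was lower, 3979 genes were lower over all genes, and MT1A was at -0.0413. With equal FPKM totals MT2A was at adjusted p = 0.0655 from limma, and 0 ZnT genes were higher and 1 lower. With no filter or with median-of-ratios factors 0 ZnT genes were higher, and with the latter 5 ZIP genes were lower. Cyclic loess scaling was an alternative added once values had been seen, and with it SLC30A1 was called (0.46, adjusted p = 0.0327 from limma), and 0 other metallothionein rows and 1 ZIP gene were lower. At a mean of at least 1 FPKM SLC30A1 was called too (adjusted p = 0.0367 from limma). Apart from these scalings and filters, the cause of each shift was not tested.

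Leaving out 1 library at a time gave 2 to 4 members higher (2 without CAFR-CM replicate 2) and 0 lower, and 2330 to 3328 genes higher over all (2330 without CAFS-CM replicate 2) against 3560, and 1799 to 2405 lower against 2626. It gave 0 to 1 ZnT genes higher and 1 to 2 lower, 1 to 2 ZIP genes higher and 1 to 3 lower, and 0 to 1 genes tied to MTF-1 lower. MT1A ranged from -0.1012 (without CAFS-CM replicate 1) to 0.2171, and was also below 0 without CAFR-CM replicate 1 or 3 (-0.03).

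The labels do not say whether libraries with the same number belong together. Deviations from the group means correlated at 0.055, -0.0285 and 0.102 over 14828 genes for the same numbers, the last being the highest of all pairs. CAFS-CM replicate 2 correlated best with CAFR-CM replicate 1 (0.0683). With 3 libraries per group the deviations constrain one another, so these values cannot decide whether the numbers mark pairs. With the replicate block 3 members were higher and 0 lower, 2891 genes were higher and 2340 lower over all, MT1F was at adjusted p = 0.0685 (limma), and 1 ZnT gene was lower. Counts of reads were not used, so count-based alternatives were not run, and low values such as those of MT1F carry an unknown counting error.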
